A study of Mus musculus with 6 samples.

Results

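The genes described here carry the name of a RIKEN cDNA clone from mouse testis in place of a gene name, such as 4931408D14Rik, 4932438A13Rik or 4933411K16Rik. A gene was taken when its symbol in the array annotation opened with the library code (the first 4 digits) of 1 of these 3 examples and went on with the plate and well of the clone and the ending Rik. Only probe sets with this symbol alone were used, and each gene was represented by its probe set with the highest mean over the 6 arrays. The rule gave 132 genes, measured by 148 probe sets, of 22180 genes with a symbol of their own on the array. The tissue was whole testis of C57BL/6J mice at 10 weeks of age, on Affymetrix mouse gene 2.0 st arrays. The ATZ group (n = 3) had received the herbicide atrazine (ATZ) in drinking water at 100 mg/l for 3 weeks, an uptake near 25 mg/kg per day, followed by 2 weeks without it. The control group (n = 3) was of the same strain and age and had received no ATZ. The labels do not say whether each array is a separate animal, and p-values then reflect the spread between arrays alone. The comparison asked how expression in the adult testis differed after exposure to ATZ.

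RIKEN clone names go back to large-scale sequencing of full-length mouse cDNAs, in which libraries from adult testis contributed these codes and several more, among them those of 4930486I03Rik, 4921513I03Rik and the clones with code 1700. A clone that could not be tied to a known gene kept its code as a provisional name, and many such clones from testis are long non-coding RNAs (lncRNAs) or genes of germ cells whose function is not established. The testis is known for transcribing an unusually broad part of the genome, in particular in spermatocytes and round spermatids. The values below are log2 signals of a probe set. A probe set's signal also depends on how well its own probes bind, so the order of levels between genes is a description of signals and not of numbers of molecules.

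RefSeq (GRCm38.p6) lists 94 of the 132 clone genes as lncRNAs, 32 as protein coding and 5 as transcribed pseudogenes, and 1 gene, 4932411E22Rik, was not matched to an entry. The library code of 4933411K16Rik contributed 95 genes, that of 4931408D14Rik 23 and that of 4932438A13Rik 14. By RefSeq 10 of them lie on the X chromosome and 121 on autosomes.

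Most clone genes were brighter than the typical probe set of the array. On the control arrays their median was 7.997 (quartiles 6.68 and 9.48, range 4.36 to 13.44), and that of all 22180 genes was 7.47 (quartiles 6.02 and 9.32). A mean signal above the array-wide median, which is the median over all probe sets (6.625), was found for 101 of the 132 clone genes (76.5%), and for 64.3% of all genes. Among the other RIKEN clones this share was 88.5% of the 304 genes with code 1700, 71.8% of the 340 with the codes of 4921513I03Rik and 4930486I03Rik, and 33.9% of the 817 with other codes, which include clones from many other tissues. The codes known from testis libraries thus had the higher shares here, and the clone genes described here lay between the others from testis. Within the clone genes, the share was 96.9% of the protein coding genes (31 of 32) and 69.1% of the lncRNAs (65 of 94). Over all genes it was 68.7% of 18961 protein coding genes and 42.3% of 1926 lncRNAs. The median control signal was 9.47 for the protein coding clone genes, 7.74 for the lncRNAs and 8.23 for the pseudogenes. The codes were closer to each other, with medians of 8.43 (23 genes), 7.81 (14 genes) and 7.997 (95 genes).

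**Figure D1:**
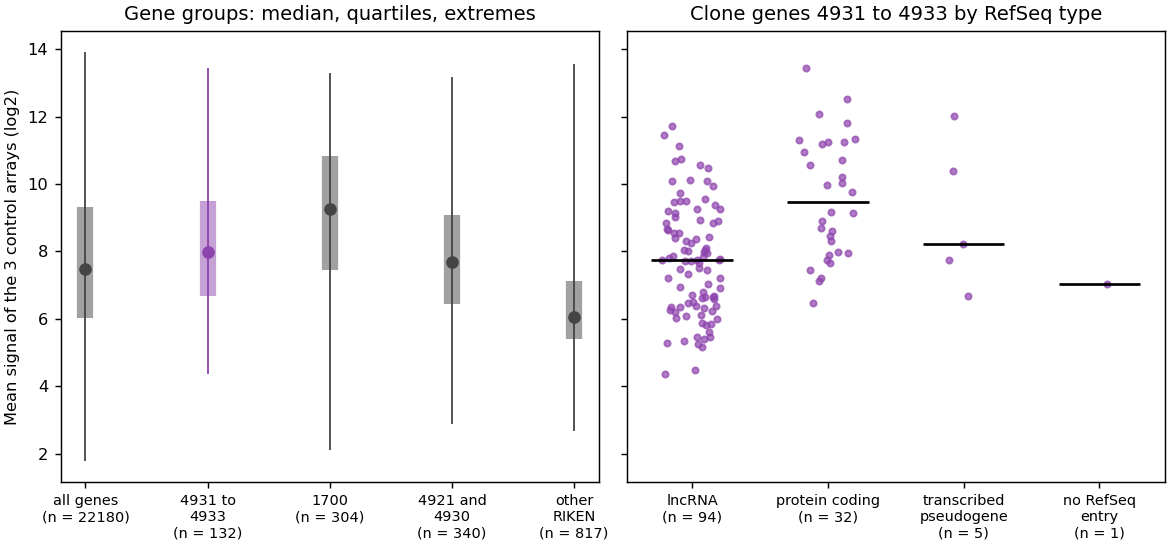
Mean log2 signal of the 3 control arrays. Left, the median (point), quartiles (bar) and extremes (line) of all genes and of the RIKEN clone groups, with the genes described here (purple) at a median of 7.997. Right, each clone gene (point) by its RefSeq type, with the median of each type as a line; protein coding genes had a median of 9.47 and lncRNAs of 7.74.

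The brightest clone gene was 4933411K16Rik, a protein coding gene, with 13.41, 13.44 and 13.47 in controls and 13.39, 13.47 and 13.30 after ATZ. Next was 4933405O20Rik, which is annotated as a probable gamma subunit of the mitochondrial NAD-dependent isocitrate dehydrogenase, with 12.69, 12.52 and 12.39 in controls and 12.80, 12.57 and 12.51 after ATZ. In both genes the groups overlapped. They were followed by 4933402J07Rik (mean of the control arrays 12.07 ± 0.09, SD, n = 3), 4933409K07Rik (12.03 ± 0.05), 4933424G06Rik (11.82 ± 0.11) and 4933432K03Rik (11.72 ± 0.02). Of these 6 brightest genes 4 are protein coding, 4933409K07Rik is a transcribed pseudogene and 4933432K03Rik is an lncRNA. The step from 4933411K16Rik to 4933405O20Rik was larger than the spread between control arrays, whereas the values of 4933402J07Rik and 4933409K07Rik interleaved. The dimmest were the lncRNAs 4931400O07Rik on the X chromosome (4.66, 4.17 and 4.24 in controls), 4933430M04Rik (4.63, 4.34 and 4.49) and 4933407G14Rik (5.24, 5.22 and 5.05). Whether RNA of these 3 genes was present cannot be read from such signals.

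The arrays of a group differed from each other about as much for the clone genes as for other genes. The median SD within a group was 0.14 on the log2 scale for the clone genes and 0.13 for all genes. It was 0.19 for the 10 clone genes on the X chromosome and 0.17 for all 899 X-linked genes. Only 7 clone genes had an SD over 0.3 among the control arrays. Among those brighter than the array-wide median, the lncRNA 4933438K21Rik varied most, with 9.03, 9.48 and 10.00 in controls and 9.38, 9.32 and 9.95 after ATZ. The X-linked protein coding gene 4933416I08Rik followed, with 8.15, 7.79 and 7.27 in controls and 7.88, 7.69 and 7.65 after ATZ, and then the lncRNA 4932415M13Rik with 8.36, 7.73 and 8 in controls and 8.20, 7.95 and 8.33 after ATZ. In all 3 the ATZ values lay within the range of the control arrays. Their mean differences of 0.05, 0.00 and 0.13 were smaller than the SDs of the controls (0.49, 0.44 and 0.32). Both are made likely by the choice of these 3 genes for their wide range in controls.

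No difference between ATZ and control passed the test across all probe sets in any of the 132 clone genes. With limma, 0 clone genes had an adjusted p under 0.05, as did 0% of all genes, and 5 clone genes (3.79%) had an unadjusted p under 0.05, beside 2.39% of all genes. Of these 5, 2 were higher after ATZ (1.52%, beside 1.6% of all genes) and 3 lower (2.27%, beside 0.794%). The smallest adjusted p of a clone gene was 0.998, and the other variance models and the test of single probe sets also gave 0 clone genes with an adjusted p under 0.05. The criterion of the methods, a fold change of at least 1.5 with an unadjusted p under 0.05, was met by 0 clone genes and by 0.203% of all genes. The largest fold was 1.40, and 104 of the 132 genes differed by less than 1.1-fold. In 8 clone genes (6.06%) every ATZ array lay outside the range of the control arrays, beside 6.91% of all genes. Of these 6 were lower after ATZ (4.55%, beside 3.08% of all genes) and 2 were higher (1.52%, beside 3.83%). The share of clone genes without overlap, in both directions together, is near the background. The directions differ from it more, but they rest on 2 to 6 genes each and were not tested. An exact permutation test of 3 against 3 arrays cannot give a two-sided p below 0.1.

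Over the clone genes as a whole the groups overlapped. Their median over genes was 8.05, 7.945 and 7.95 after ATZ and 8.14, 7.93 and 8.015 in controls. The median log2 difference, ATZ minus control, was 0.00 (quartiles -0.07 and 0.07, extremes -0.49 and 0.31), and for all genes it was also 0.00 (quartiles -0.08 and 0.07). There were 68 clone genes with a higher mean after ATZ, 61 with a lower one and 3 with equal means. This split depended on the scaling, with 52 higher and 79 lower once each array was centred on its median. This is because the medians of the ATZ arrays (6.62, 6.63 and 6.69) were on average slightly above those of the controls (6.61, 6.6 and 6.64), although they overlapped. By type, the median difference was 0.02 for the lncRNAs (54 higher and 38 lower), -0.01 for the protein coding genes (12 higher and 19 lower) and -0.12 for the 5 pseudogenes (1 higher and 4 lower). Over all genes the same medians were 0.03 for lncRNAs and -0.01 for protein coding genes. All 5 clone genes with an unadjusted p under 0.05 were among the 94 lncRNAs. Over all genes such a p was found for 51 of 1926 lncRNAs and 400 of 18961 protein coding genes. A difference between the types was not tested.

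**Figure D2:**
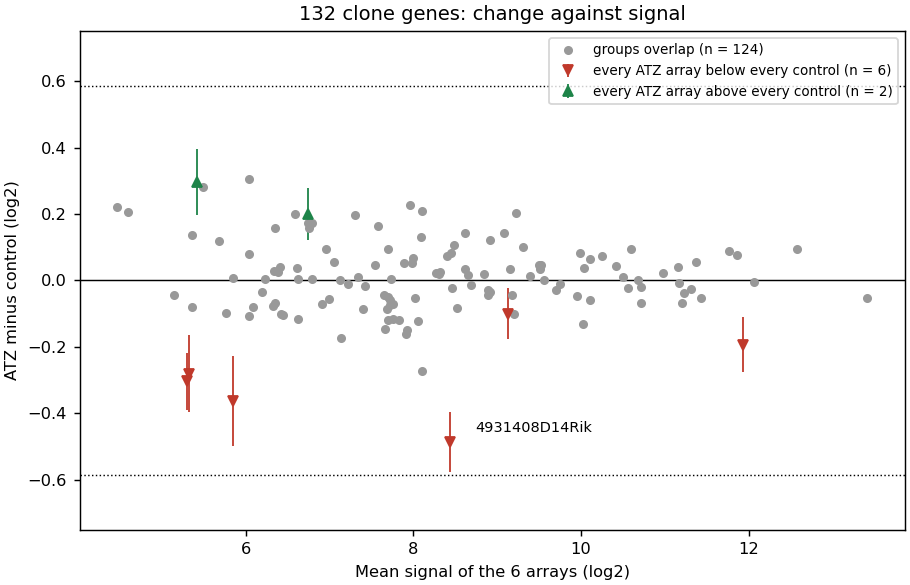
Difference between ATZ and control (log2) against the mean signal of the 6 arrays (log2) for the 132 clone genes. Grey points are the genes whose groups overlap, triangles with bars (standard error) are the 8 whose groups do not, and dotted lines mark a 1.5-fold difference, which no clone gene reached; the lowest, 4931408D14Rik, was at -0.49.

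The clone gene with the largest difference was the lncRNA 4931408D14Rik. It gave 8.32, 8.13 and 8.13 after ATZ and 8.69, 8.66 and 8.69 in controls. The 3 control arrays were almost equal and every ATZ array lay below them, by at least 0.34 on the log2 scale. The difference was -0.49 ± 0.09 (standard error), a fold of 1.40, with an unadjusted p of 0.00131 and a limma adjusted p of 0.998. In RefSeq order its direct neighbour on 1 side is Ide, the gene of insulin-degrading enzyme, a metalloprotease that cleaves insulin and other small peptides. Ide was chosen for its place after its values had been seen. It gave 11.93, 12 and 12.01 after ATZ and 12.43, 12.24 and 12.29 in controls. It too had every ATZ array below every control array, with a difference of -0.34 ± 0.09 (unadjusted p = 0.00774, limma adjusted p = 0.998). The nearest measured gene on the other side, Marchf5, a ubiquitin ligase of mitochondria, had a difference of 0.03 ± 0.08 with overlapping groups. Whether the signals of 4931408D14Rik and Ide come from 1 transcript or from 2 was not tested.

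**Figure D3:**
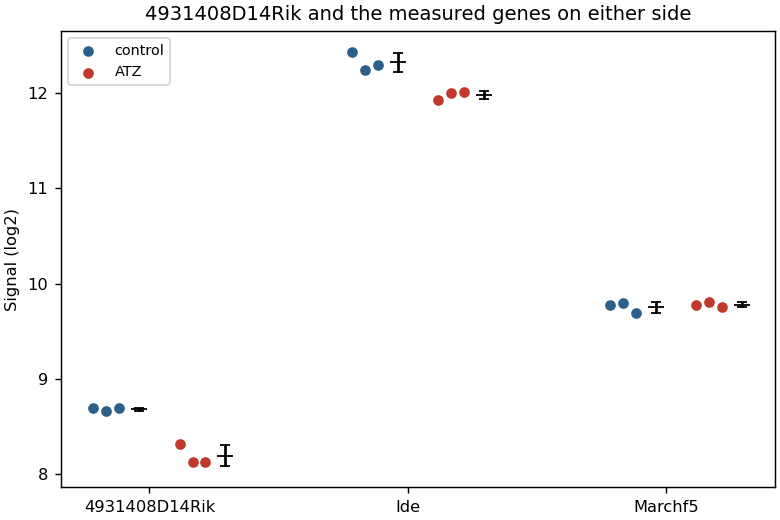
Log2 signal of 4931408D14Rik and of the nearest measured genes on its sides, Ide and Marchf5, on each of the 3 control (blue) and 3 ATZ (red) arrays, with the mean and SD beside each group. The groups lie apart for 4931408D14Rik (means 8.68 and 8.19) and for Ide (12.32 and 11.98), and overlap for Marchf5.

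The other 4 clone genes with an unadjusted p under 0.05 were dimmer than 4931408D14Rik. The lncRNA 4933401D09Rik had 5.70, 5.41 and 5.89 after ATZ and 6.02, 6.09 and 5.98 in controls, a difference of -0.36 ± 0.14 (unadjusted p = 0.0337). Its ATZ arrays were lower but spread over 0.48 on the log2 scale, and the highest of them came within 0.09 of a control array. Without ATZ replicate 2 the difference was -0.24. The lncRNA 4933432G23Rik had 5.08, 5.14 and 5.23 after ATZ and 5.40, 5.50 and 5.46 in controls, a difference of -0.30 ± 0.09 (unadjusted p = 0.0106). The lncRNA 4933432I03Rik was higher after ATZ, with 5.45, 5.57 and 5.67 against 5.38, 5.21 and 5.21, a difference of 0.30 ± 0.10 (unadjusted p = 0.0233). The lncRNA 4933406I18Rik was also higher after ATZ, with 6.90, 6.83 and 6.81 against 6.69, 6.62 and 6.63, a difference of 0.20 ± 0.08 (unadjusted p = 0.0431). The limma adjusted p was 0.998 for each of the 4. All but 4933406I18Rik lay below the array-wide median. There were 13 clone genes with a mean under 6, of which 4 (30.8%) had groups without overlap and 3 an unadjusted p under 0.05. Of 5367 genes this dim in the whole table, 9.84% had no overlap, beside 5.60% of the genes with a mean of 10 or more. An unadjusted p under 0.05 was found for 339 of these 5367. The shares among the 13 were thus higher, but they rest on 3 and 4 genes and were not tested.

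Promoter sequences were printed for the clone genes with an unadjusted p under 0.05, since these had the smallest p among the clone genes. RefSeq (GRCm38.p6) gave a promoter for 106 of the 132 clone genes and for all of these genes but 4933406I18Rik. Each sequence runs 5′ to 3′ on the strand of the gene, from 250 bases before its start to 50 after it, with capitals on matches to the motifs named below.
4931408D14Rik (chr19:37264046-37264345, minus strand): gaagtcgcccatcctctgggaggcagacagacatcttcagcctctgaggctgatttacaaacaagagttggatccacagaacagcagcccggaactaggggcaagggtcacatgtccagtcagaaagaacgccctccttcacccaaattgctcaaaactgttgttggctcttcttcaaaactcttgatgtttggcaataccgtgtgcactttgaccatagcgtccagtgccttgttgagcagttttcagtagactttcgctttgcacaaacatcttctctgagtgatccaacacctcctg
4933401D09Rik (chr17:15631538-15631837, plus strand): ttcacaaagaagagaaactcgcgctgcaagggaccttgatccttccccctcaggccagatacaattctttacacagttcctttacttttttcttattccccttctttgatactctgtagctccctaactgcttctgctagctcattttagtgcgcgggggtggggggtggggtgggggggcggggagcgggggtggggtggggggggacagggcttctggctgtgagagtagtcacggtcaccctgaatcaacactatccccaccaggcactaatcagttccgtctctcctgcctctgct
4933432G23Rik (chr9:118429589-118429888, plus strand): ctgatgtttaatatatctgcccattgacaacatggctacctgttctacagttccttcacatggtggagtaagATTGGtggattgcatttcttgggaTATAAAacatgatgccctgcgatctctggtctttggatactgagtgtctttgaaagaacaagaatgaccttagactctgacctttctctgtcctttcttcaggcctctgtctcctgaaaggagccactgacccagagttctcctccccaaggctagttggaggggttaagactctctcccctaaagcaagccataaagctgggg
4933432I03Rik (chr14:103033754-103034053, minus strand): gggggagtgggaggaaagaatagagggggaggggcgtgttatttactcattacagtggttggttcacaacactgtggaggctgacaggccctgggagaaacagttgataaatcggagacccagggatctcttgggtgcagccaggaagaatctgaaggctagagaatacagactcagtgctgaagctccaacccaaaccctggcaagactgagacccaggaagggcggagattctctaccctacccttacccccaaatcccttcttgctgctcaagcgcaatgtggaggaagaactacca
The motifs searched, on both strands, were the cAMP response element TGACGTCA, bound by CREM in spermatids, the X-box part GTTGCC, bound by RFX factors of ciliated and germ cells, the TATA box TATAAA and the CCAAT box. None of these motifs contains another. In the 4 printed sequences only 4933432G23Rik had matches, which were 1 TATA box and 1 CCAAT box. Over the 106 clone genes with a promoter, TGACGTCA was found in 1 (0.943%), GTTGCC in 18 (17%), TATAAA in 14 (13.2%) and CCAAT in 40 (37.7%). Over all 27025 genes with a promoter of this length the shares were 2.03%, 14.1%, 15.7% and 41.1%. The share among clone genes was thus above that of all genes for GTTGCC and below it for the other motifs, with no test of the differences, and a match shows only that the letters are there.

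The groups did not overlap in 3 further clone genes, which had an unadjusted p over 0.05. The lncRNA 4932441J04Rik had 5.13, 5.21 and 5.19 after ATZ and 5.49, 5.25 and 5.63 in controls, and its lowest control array lay 0.04 above the highest ATZ array. The protein coding gene 4933427D14Rik had 9.10, 9.07 and 9.06 after ATZ and 9.14, 9.19 and 9.20 in controls. Its human counterpart, KIAA0753, encodes a protein of centrioles and the satellites around them. The difference in 4933427D14Rik was small, -0.10 ± 0.08 (unadjusted p = 0.237). The last of the 3, 4933409K07Rik, is described next.

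**Figure D4:**
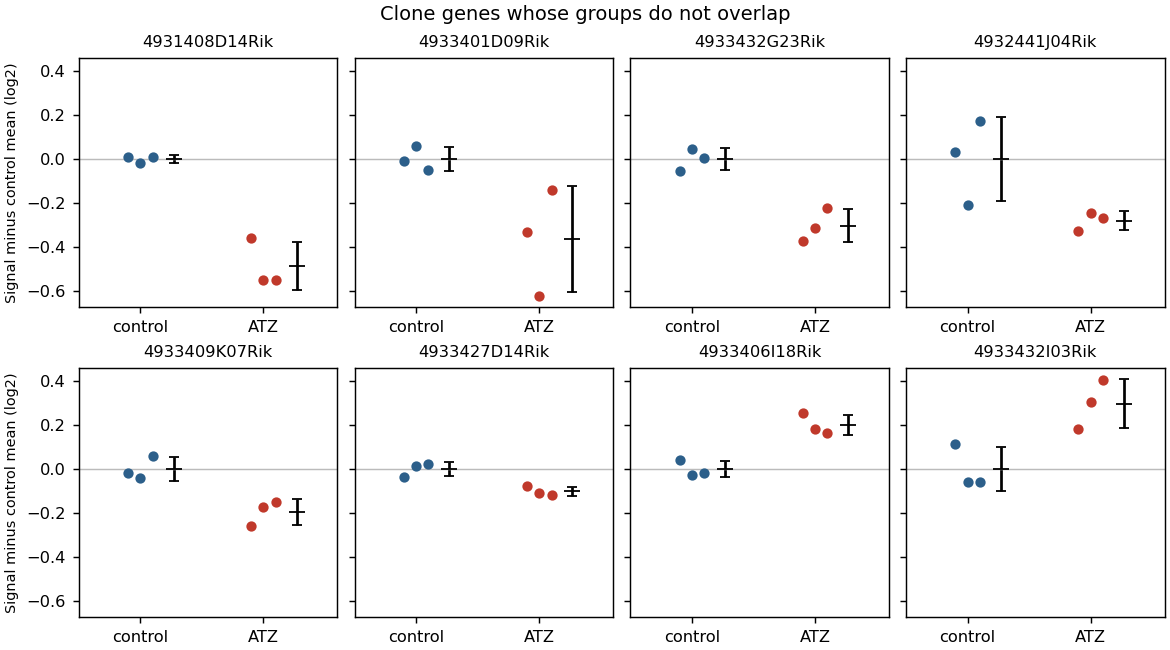
Log2 signal minus the control mean of the same gene, on each of the 3 control (blue) and 3 ATZ (red) arrays, with the mean and SD beside each group, for the 8 clone genes whose groups do not overlap. The panels run from the lowest difference (4931408D14Rik, -0.49) to the highest (4933432I03Rik, 0.30).

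The transcribed pseudogene 4933409K07Rik was measured by more probe sets than any other clone gene, many of them annotated with further genes as well. The probe set used here had 11.77, 11.86 and 11.88 after ATZ and 12.01, 11.99 and 12.09 in controls, a difference of -0.19 ± 0.08 (unadjusted p = 0.0555). Its symbol stood alone on 8 probe sets, of which 3 repeat the values of another exactly, leaving 5 distinct sets of values. Differences over these 8 ran from -0.35 to 0.05. The lowest was on a probe set with 10.44, 10.42 and 10.48 after ATZ and 10.71, 10.82 and 10.87 in controls (-0.35 ± 0.08, unadjusted p = 0.00496, limma adjusted p = 0.998). The highest was on the dimmest one, with 7.63, 7.66 and 7.25 against 7.43, 7.57 and 7.40. Another 12 probe sets, with 9 distinct sets of values, carry the symbol together with Gm3893 and, on 1 of them, further symbols. All 12 had a lower mean after ATZ, by 0.17 to 0.33 on the log2 scale. In 8 of them, or 7 of the 9 distinct sets, every ATZ array lay below every control array. Over the 20 probe sets 19 were lower after ATZ, and 9 had an unadjusted p under 0.05. Over their 14 distinct sets of values 13 were lower, and 8 had such a p. Probe sets with shared symbols and repeated values are not independent measurements, and their signal cannot be assigned to 1 gene copy. The value of 4933409K07Rik is therefore uncertain as that of a single gene. The study's own list of differing genes holds another gene, described there as similar to 4933409K07Rik, as lower after ATZ. That gene is not among the clone genes.

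**Figure D5:**
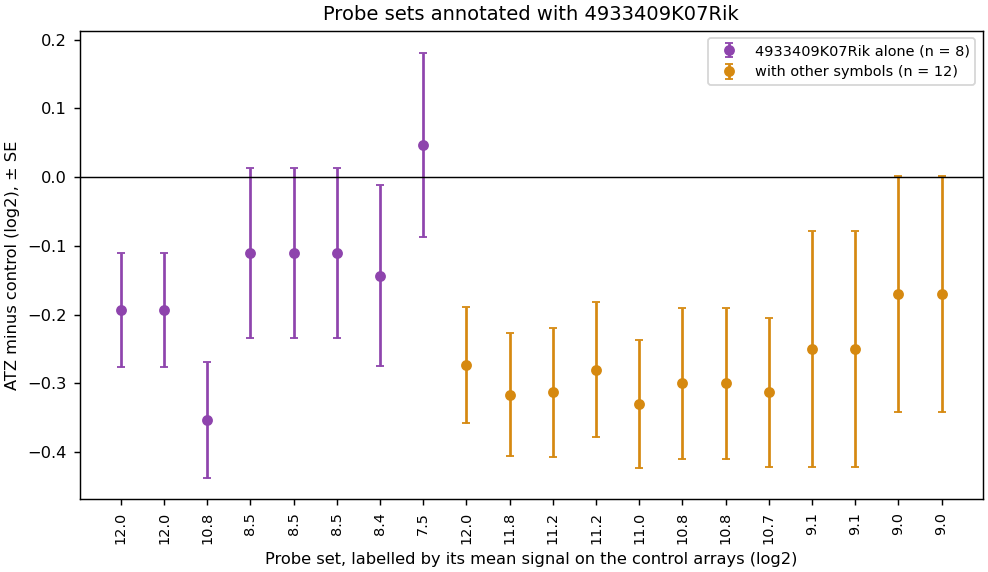
Difference between ATZ and control (log2, with its standard error) for the 20 probe sets whose annotation holds 4933409K07Rik, each labelled by its mean control signal (log2). Purple points are the 8 with this symbol alone and orange points the 12 with other symbols too; 19 of the 20 points lie below 0, and several repeat the same values.

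Of the 132 clone genes 8 had more than 1 probe set of their own. Apart from 4933409K07Rik, the probe sets of 1 gene disagreed by at least 0.3 on the log2 scale and in sign only for 4933434E20Rik, a protein coding gene also called NICE-3, whose human counterpart is C1orf43. Its brightest probe set had 11.34, 11.48 and 11.39 after ATZ and 11.28, 11.34 and 11.42 in controls, a difference of 0.06 ± 0.09. Its dimmest had 6.88, 7.23 and 7.15 after ATZ and 7.34, 7.48 and 7.27 in controls, a difference of -0.28 ± 0.12 (unadjusted p = 0.0607). The bright probe sets showed no difference beyond the spread of the arrays, and which part of the transcript each one reads is not given in the sources used here. In the other 6 genes the differences of the probe sets lay within 0.15 of each other.

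The study also mapped trimethylation of lysine 4 of histone H3 (H3K4me3), a mark of active promoters and of sites of meiotic recombination. Its peak tables list 7 of the clone genes as genes that hold a differing peak within them. The list of differing peaks at recombination sites could be read only in part, so further clone genes may hold one. Clone genes that the tables name only as the nearest gene to a peak, among them 4933432G23Rik and 4933406I18Rik, were not counted here. In the peak tables the mark was higher after ATZ in each of these genes except 4933409K07Rik, where it was higher in controls. Nearly all differing peaks of the study were higher after ATZ. Whether the mark and the array signal go together was not tested. On the arrays 5 of these 7 genes had a higher mean after ATZ, beside 47.8% of all genes, and 2 a lower one. An unadjusted p under 0.05 was found for 0 of them, beside 2.39% of all genes. The lncRNA 4933430N04Rik had 6.85, 6.84 and 6.81 after ATZ and 6.58, 6.57 and 6.83 in controls (0.17 ± 0.10), and the protein coding gene 4931408C20Rik had 6.79, 6.68 and 6.58 against 6.30, 6.71 and 6.44 (0.20 ± 0.13). In both, the groups overlapped, and the difference of 4931408C20Rik was 0.11 without control replicate 1 and 0.31 without control replicate 2. The large gene 4932438A13Rik, also called Kiaa1109 or Tweek, encodes a bridge-like lipid transfer protein. It had 11.17, 11.16 and 11.18 after ATZ and 11.16, 11.27 and 11.28 in controls (-0.07 ± 0.08). The differences of the other genes named there were 0.08 ± 0.08 for 4932435O22Rik, 0.04 ± 0.10 for 4933400A11Rik and 0.02 ± 0.12 for 4932414N04Rik, beside -0.19 ± 0.08 for 4933409K07Rik. The direction for 4932414N04Rik turned when arrays were centred on their medians (-0.01).

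On the X chromosome, which is silenced in spermatocytes during meiosis, none of the 10 clone genes had groups apart or an unadjusted p under 0.05. Of all 899 X-linked genes 54 (6.01%) had groups apart and 29 had an unadjusted p under 0.05. None among 10 genes is near these shares. The median difference of the 10 clone genes was 0.00, beside -0.03 for all X-linked genes. The lowest was -0.27 for the pseudogene 4933401B06Rik and the highest 0.22 for 4931400O07Rik. Among them is 4933407K13Rik, which lies at Dxz4, a macrosatellite that separates the folding domains of the inactive X chromosome in female cells, and it differed by 0.09 (unadjusted p = 0.477).

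Markers of the cell types of the testis were read beside these values, since in whole testis fewer cells of a type and less RNA per cell cannot be told apart. The tissue label fits the markers, with mean control signals from 12.41 (Tnp1) to 13.72 (Prm1) for the 8 genes of elongating spermatids and a signal above the array-wide median for 2 of 6 genes of epididymal epithelium. The averaged signal of the round spermatid list ran from 11.11 to 11.21 after ATZ and from 11.07 to 11.13 in controls, with 8 of 10 genes higher after ATZ. For the spermatocyte list it ran from 10.43 to 10.52 and from 10.46 to 10.53, with 7 of 9 genes lower. For the spermatogonial list it ran from 7.94 to 8.17 and from 8.08 to 8.41, with 8 of 8 lower, and for the Leydig list from 10.90 to 11.08 and from 10.92 to 11.41, with 6 of 6 lower. The ranges overlapped in each of these lists, and only 1 gene of these 4 lists, in the Leydig list, had an unadjusted p under 0.05. The Leydig list holds Star, which the study had already reported as lower after ATZ. All counts are of measured genes, which were 6 of the 8 listed for Leydig cells and 9 of 10 for spermatocytes. They were 8 of 9 for elongating spermatids, and 6 of 7 each for leukocytes and epididymal epithelium. Lower means after ATZ were also found in 7 of 8 Sertoli, 4 of 5 endothelial, 4 of 6 peritubular and 4 of 6 leukocyte genes. In the last 2 lists they were found in 5 of 8 genes of elongating spermatids and 3 of 6 of epididymal epithelium. Of all 5516 genes with a mean signal of 8 to 10, 3690 were lower after ATZ. Among all 3820 genes with a mean of 10 or more, 1966 were lower. Whether the direction differs between cell types was not tested. The part of the cell types in the values of the clone genes was not tested.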

How the data were processed

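RNA of 6 whole testes samples (3 ATZ, 3 control) was hybridised to 1 Affymetrix array each. The deposited values are log2 signals that the authors made with RMA in the Affymetrix Expression Console (versions not given in the sources used here), 1 per probe set and array for 41345 probe sets, rounded to 2 decimals. Background correction and normalization between arrays are thus already in them, and the number of arrays limits the precision.

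ATZ was set against control by limma 3.58.1 under R 4.3.3 (lmFit and eBayes, two-sided). All probe sets entered the fit, and p-values were adjusted over all of them by the method of Benjamini and Hochberg. The fit was tested on simulated data. The clone genes are those with the library codes 4931, 4932 and 4933, compared with codes 1700, 4921 and 4930. The array annotation names 1 symbol for 23521 probe sets, more than 1 for 1820, and leaves 16004 unnamed. Fold changes are differences of mean log2 values. The criterion of fold and unadjusted p is that of the study, which used the AMEN software and does not name the test. The genes and lists were chosen with earlier results of these data known, so lists are described by counts and medians only.

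Genes named are those with an unadjusted p under 0.05 or a fold of at least 1.5, those without overlap and above the array-wide median, the brightest 6 and dimmest 3 in controls, the 3 most variable in controls among genes brighter than the array-wide median, those listed with an H3K4me3 peak within the gene, and those whose probe sets disagree. 4932441J04Rik, 4933401B06Rik, 4933407K13Rik and Ide with Marchf5 fall outside this rule and were chosen after their values were seen. RefSeq (GRCm38.p6) gave an entry for 131 clone genes. The genome build of the array files is not given in the sources used here. Summaries used Python 3.11.15 with pandas 2.3.3 and numpy 2.4.6, and plots used matplotlib 3.10.9. The alternatives were a replicate block, a variance trend with robust settings, a separate test for each probe set, weighted arrays, repeated quantile normalization, arrays centred on their medians, bright probe sets only, probe sets with 1 symbol only, the most variable probe set per gene, folds from linear means, and each array left out.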

Additional observations from a re-analysis of the deposited data

How the results depend on the processing

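In every alternative run, 0 clone genes met the criterion of fold and unadjusted p, and 0 had an adjusted p under 0.05 in those with a test of their own. The clone genes with an unadjusted p under 0.05 numbered 2 with the replicate block, in place of 5. Among the 101 brighter than the array-wide median they numbered 3. When 1 array was left out they numbered 2 to 4 (2 without ATZ replicate 2 and 3 without ATZ replicate 3). Their number was 7 with array weights and among probe sets with 1 symbol, 6 with single probe set tests, repeated quantile normalization, centred arrays and the most variable probe set, and 4 with a variance trend. Deviations of same-numbered arrays correlated at 0.017, 0.106 and 0.26. Whether the replicate numbers pair the arrays is not given by the labels. These correlations cannot decide it, since differently numbered arrays were not compared. Clone genes without overlap numbered 4, in place of 8, among the 101 with bright probe sets. They numbered 16 to 23 when 1 array was left out, since groups of 2 and 3 separate more easily by their construction. With quantile normalization repeated they numbered 12, with 6 higher and 6 lower after ATZ in place of 2 and 6. With arrays centred on their medians they numbered 10, with 2 higher and 8 lower. Counts over all genes under these alternatives are not given here, so no background stands beside them. The median log2 difference stayed between -0.03 and 0.03. Of 15 gene differences followed, 12 kept their direction. 4932414N04Rik turned with centred arrays (-0.0067) and ranged from -0.043 to 0.14 when 1 array was left out, 4933400A11Rik ranged from -0.0017 (without control replicate 2) to 0.12 and 4933434E20Rik was at -0.28 on its most variable probe set. 4931408D14Rik ranged from -0.55 to -0.46, 4933401D09Rik from -0.48 to -0.24 and 4931408C20Rik from 0.11 to 0.31. The lowest adjusted p of these genes in any alternative was 0.734. No detection calls were used, so which dim clone genes lie above background is not known.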

Other observations

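A further 5 clone symbols with these codes stood on the array only beside another gene's symbol and were not counted among the clone genes. The probe set shared by Lgsn and 4931428L18Rik had 9.56, 9.57 and 9.46 after ATZ and 9.67, 9.47 and 9.51 in controls. The probe set shared by 4931431C16Rik and Acox3, an acyl-CoA oxidase of peroxisomes, had 7.21, 7.26 and 7.26 against 7.33, 7.31 and 7.23. The probe set shared by Arhgap23 and 4933428G20Rik had 8.63, 8.87 and 8.64 against 8.88, 8.54 and 8.94. The groups overlapped in these 3. The 2 probe sets shared by Jrk and 4933427E11Rik differed by 0.00 ± 0.10 and -0.02 ± 0.13 (standard error, log2, ATZ minus control). The 2 shared by Rab11fip1 and 4933416M07Rik differed by 0.03 ± 0.08 and -0.24 ± 0.14. A signal on these probe sets cannot be assigned to either symbol.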
